A study of Mus musculus with 4 samples.

Results

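The genes described here are a pair of ligands and 3 receptors through which the layers of the gastrulating mouse embryo signal to each other. They are Pdgfra and its ligand Pdgfa, and Vegfa with its receptors Kdr and Flt1. All 5 symbols were found as single rows in each of 3 single-cell count tables, which list 16639, 16341 and 18640 genes. The tables come from droplet libraries that count the 3′ ends of transcripts by unique molecular identifier (UMI), 1 UMI standing for 1 captured molecule. Embryos were T nEGP-CreERT2/+; R26R tdtomato/tdtomato throughout, so every group carries the Cre expressed from the T locus, the tdTomato reporter and a maternal dose of tamoxifen, and there is no group without them. Tamoxifen was given at E6+5h for MS-LS, E6+21h for OB-EB and E7+7h for EHF, so the time from dose to collection differs between them. They were collected at the mid-streak to late-streak stage (MS-LS, E6+21h), the no-bud to early-bud stage (OB-EB, E7+3h) and the early head fold stage (EHF, E7+14h). Several embryos were pooled for each library and each stage is 1 library, so stage and library cannot be told apart, there is no replicate, and no p-value is given. Intervals in the text are exact 95% intervals that cover counting error only.

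Platelet-derived growth factor A is secreted as a dimer and binds the receptor tyrosine kinase Pdgfra, which in the early embryo is carried by mesoderm and by primitive endoderm derivatives, with the ligand often made in an adjoining epithelium. Vegfa is the main growth factor of forming vessels. It binds Kdr (also called Flk1), the kinase that marks the mesoderm from which endothelium and blood arise, and Flt1, which binds the ligand tightly but signals weakly and is also made in a secreted form that holds the ligand away from Kdr. Counting 3′ ends does not separate the secreted and membrane forms of Flt1, or the splice forms of Vegfa.

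In order of stage the libraries held 3635, 3994 and 3494 cells with medians of 4251, 2620.5 and 5584 UMIs. Cells were clustered within each library with the PDGF and VEGF genes held out, and a cluster was named from marker genes as a likeness only. Mesoderm-like clusters held 593, 1363 and 939 cells in the order of stage, epiblast- and ectoderm-like clusters 691, 856 and 702, extra-embryonic endoderm-like clusters 680, 328 and 333, endothelial- and blood-progenitor-like clusters 71, 144 and 217, and definitive endoderm-like clusters 155, 187 and 75. Clusters left without a name held 665, 821 and 453 cells. Where X- and Y-linked transcripts allowed a cell to be called female or male, 51.7% of such cells were female in the MS-LS library, 63.2% in OB-EB and 85.7% in EHF, so the libraries also differ in the embryos they pool. A level is the UMI sum of a gene divided by all UMIs of its class and scaled to 1000000 (CPM), and differences are given as log2 ratios of CPM. Levels are not compared between genes, because 3′ capture differs from gene to gene.

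In the GRCm38 annotation, Pdgfra (chromosome 5, 75152292 to 75198215, plus strand) and Kdr (75932827 to 75978458, minus strand) lie on either side of Kit, a further receptor tyrosine kinase gene. The gap from Pdgfra to Kit is 376.7 kb and that from Kit to Kdr is 276.1 kb. Pdgfa (138976014 to 138997370) and Flt1 (147561604 to 147726011) lie farther along the same chromosome on the minus strand, and Vegfa (46016993 to 46032369, minus strand) is on chromosome 17. The 250 bases before the RefSeq start of the 3 receptor genes are shown because Kdr and Flt1 shared a cell type and Pdgfra did not. Each is written 5′ to 3′ on the strand of its gene (GRCm38.p6), at chr5:75152001-75152250 for Pdgfra, chr5:75978456-75978705 for Kdr and chr5:147726012-147726261 for Flt1. Capitals mark GGAAG or, on the other strand, CTTCC, a longer form of GGAA, the core letters bound by ETS-family factors.
Pdgfra: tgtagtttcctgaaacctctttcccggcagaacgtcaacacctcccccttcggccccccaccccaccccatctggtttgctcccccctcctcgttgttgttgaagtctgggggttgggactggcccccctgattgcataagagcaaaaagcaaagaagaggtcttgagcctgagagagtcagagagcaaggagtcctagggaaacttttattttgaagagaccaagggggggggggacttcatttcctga
Kdr: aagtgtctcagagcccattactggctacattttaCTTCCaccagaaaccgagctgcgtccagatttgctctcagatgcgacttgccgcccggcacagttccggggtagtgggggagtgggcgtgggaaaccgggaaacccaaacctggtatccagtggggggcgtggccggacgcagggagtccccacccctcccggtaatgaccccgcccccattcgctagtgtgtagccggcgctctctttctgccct
Flt1: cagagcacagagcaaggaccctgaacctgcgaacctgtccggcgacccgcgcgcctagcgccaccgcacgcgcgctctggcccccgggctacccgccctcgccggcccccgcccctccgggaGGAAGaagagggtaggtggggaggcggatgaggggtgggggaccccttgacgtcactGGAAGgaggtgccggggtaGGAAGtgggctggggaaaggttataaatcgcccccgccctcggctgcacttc
This longer form occurred 3 times before Flt1, 1 time before Kdr and 0 times before Pdgfra in these windows. The ligand genes, which did not share the endothelial-like cells, held it as well. It occurred 2 times in each of the 2 Pdgfa entries and 1 time in each of the 2 Vegfa entries, so its count did not follow cell type. The shorter GGAA, or TTCC on the other strand, also stands unmarked in all 3 windows. GGAAG is a common run of letters, present at least once in 64.1% of the 32851 promoter entries and 2 or more times in 29.4%. A match is a description of the letters and not a binding site. The low-oxygen response core, ACGTG or CACGT, was in none of the 3 windows and in 16.6% of all entries. Of the 2 Vegfa entries, that at chr17:46025164-46025413 held it 1 time and the other 0 times. Both Pdgfa entries held it 0 times.

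The question put to Pdgfra was which germ-layer derivatives carry the receptor at each stage. Pdgfra was a mesoderm-like and extra-embryonic endoderm-like transcript at all 3 stages. In mesoderm-like cells its level was 64.8 CPM (55.8 to 74.8) at MS-LS, 37.2 CPM (31.7 to 43.5) at OB-EB and 71.7 CPM (64.8 to 79.2) at EHF. Epiblast- and ectoderm-like cells held 3.88, 1.11 and 3.32 CPM, and trophoblast-like cells 1.63, 1.07 and 2.26 CPM. Mesoderm-like cells therefore exceeded epiblast- and ectoderm-like cells 16.7-fold (log2 ratio 4.06, 3.25 to 5.00) at MS-LS, 33.5-fold (5.06, 3.49 to 7.36) at OB-EB and 21.6-fold (4.44, 3.70 to 5.29) at EHF. The OB-EB ratio rests on 3 UMIs in the epiblast- and ectoderm-like cells.

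**Figure D1:**
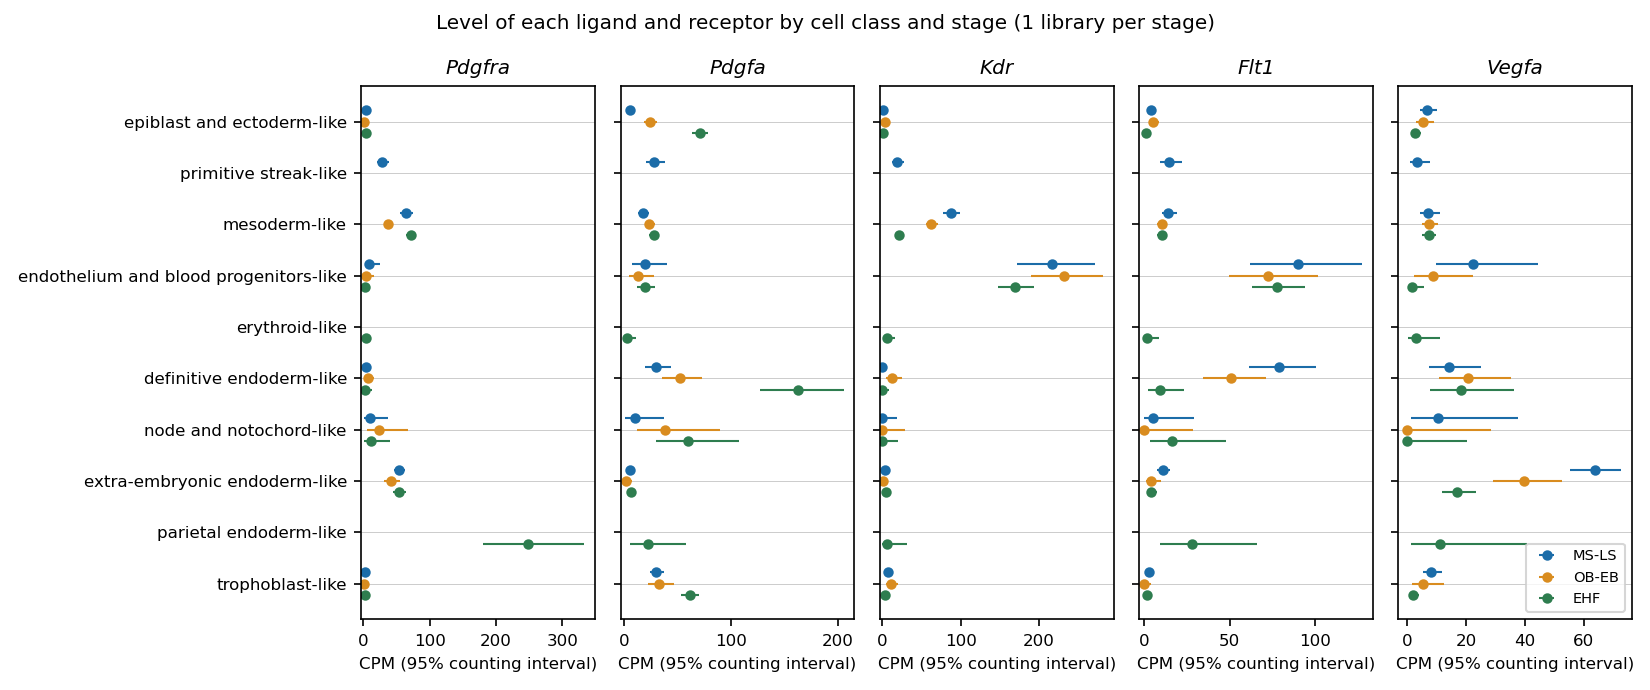
Level (CPM) of the 5 genes in each named group of cells at MS-LS, OB-EB and EHF. Points are the class sums with exact 95% counting intervals, each stage being 1 library. Pdgfra is high in mesoderm-like and extra-embryonic endoderm-like cells, Kdr and Flt1 in endothelial- and blood-progenitor-like cells, and Vegfa in extra-embryonic endoderm-like cells. Pdgfa is higher at each later stage in epiblast- and ectoderm-like and definitive endoderm-like cells, classes whose clusters differ between stages.

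Extra-embryonic endoderm-like cells, which line the yolk sac cavity, carried Pdgfra at 54.3, 41.3 and 53.2 CPM. At MS-LS the level differed between their clusters, at 15.4 CPM (8.78 to 24.9) in the 270 cells led by Spink1 and Cd59a, 62.5 CPM in the 287 led by Lgals2 and 83.0 CPM in the 123 led by Cubn. Their log2 ratio over mesoderm-like cells was −0.26 (−0.56 to 0.05) at MS-LS, 0.15 (−0.34 to 0.62) at OB-EB and −0.43 (−0.74 to −0.13) at EHF, so the interval included 0 at the first 2 stages. The highest level in any named class was in the 64 parietal endoderm-like cells of the EHF library, the cells that lay down the outer yolk sac basement membrane, with 44 UMIs or 248 CPM (180 to 333). That was above the other extra-embryonic endoderm-like cells of the same library by a log2 ratio of 2.22 (1.69 to 2.73) and above its mesoderm-like cells by 1.79 (1.31 to 2.24). The 8 nascent mesoderm markers summed to 50.2, 52.9 and 25.03 CPM in extra-embryonic endoderm-like cells, against 874 and 827 CPM in mesoderm-like cells at MS-LS and OB-EB. They summed to 387 CPM in mesoderm-like cells of EHF and 412 CPM in its parietal endoderm-like cells, in which 2 of the 8 had a UMI, Snai1 and Fgf3, and Mesp1, Lefty2 and Tbx6 were among the 6 at 0. Their part in the Pdgfra level was not tested. Primitive streak-like cells, found as a class only in the MS-LS library, lay between epiblast and mesoderm at 28.5 CPM (20.6 to 38.3).

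Pdgfra was lowest at OB-EB within mesoderm-like cells. The log2 ratio of OB-EB over MS-LS was −0.80 (−1.11 to −0.49) and that of EHF over OB-EB was 0.95 (0.68 to 1.22), while EHF over MS-LS was 0.15 (−0.11 to 0.41). The last value was 0.48 over cells called female and −0.48 over cells called male. The lower OB-EB value was also present in cells with markers of lateral plate and extra-embryonic mesoderm, a class whose markers do not separate these tissues and which is called lateral plate/extra-embryonic mesoderm-like, at 47.6, 21.7 and 41.6 CPM, and in the remaining mesoderm-like cells, at 76.6, 42.3 and 76.7 CPM. OB-EB is the shallowest library. Within each library lateral plate/extra-embryonic mesoderm-like cells held less Pdgfra than the other mesoderm-like cells, with log2 ratios of −0.69 (−1.17 to −0.23), −0.96 (−1.67 to −0.32) and −0.88 (−1.45 to −0.36). Mesoderm-like cells came from clusters 3, 8 and 15 at MS-LS, 2, 3, 5 and 6 at OB-EB, and 2, 3, 8, 14, 17, 18 and 20 at EHF, so the mesoderm compared differs in makeup between stages.

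Pdgfa, the ligand, was measured to see which tissue holds it beside its receptor. It was higher in mesoderm-like than in epiblast- and ectoderm-like cells at MS-LS and lower at EHF. In epiblast- and ectoderm-like cells it was at 5.66 CPM (3.41 to 8.84) at MS-LS, 24.1 CPM (18.6 to 30.7) at OB-EB and 71.0 CPM (63.4 to 79.2) at EHF. Mesoderm-like cells held 17.7, 23.8 and 28.1 CPM. The log2 ratio of epiblast- and ectoderm-like over mesoderm-like cells was thus −1.64 (−2.48 to −0.86) at MS-LS, 0.02 (−0.45 to 0.48) at OB-EB and 1.34 (1.05 to 1.62) at EHF. The EHF value was 0.26 (−0.72 to 1.25) over the few cells called male, which held 21 UMIs of Pdgfa in one class and 18 in the other, and the libraries differ in their share of such cells; the part of sex in this value was not tested.

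The ligand was 12.5-fold higher at EHF than at MS-LS in epiblast- and ectoderm-like cells (log2 ratio 3.65, 2.98 to 4.40). All clusters of this class were named epiblast-like at MS-LS. At EHF those with a name were neuroectoderm-, caudal neuroectoderm- or caudal epiblast-like, so the ratio compares different tissues. Definitive endoderm-like cells, the lineage of the gut lining, stood at 29.9, 52.2 and 163 CPM, an EHF over MS-LS log2 ratio of 2.45 (1.77 to 3.16). Their cluster was led by Cer1, Lefty1 and Sox17 at MS-LS and by Trh, Cer1 and Cpm at EHF. Trophoblast-like cells stood at 30.4, 33.2 and 61.5 CPM (1.02, 0.66 to 1.39). Mesoderm-like cells differed less (0.67, 0.21 to 1.16). The median gene was itself 0.26 higher on the log2 scale at EHF than at MS-LS in epiblast- and ectoderm-like cells and in mesoderm-like cells. Extra-embryonic endoderm-like cells, where the receptor was high, held 6.16, 2.48 and 6.26 CPM of the ligand.

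At EHF the ligand was spread over the ectodermal and caudal classes. Caudal neuroectoderm-like cells held 86.4 CPM (70.6 to 104.7), caudal epiblast-like cells 67.2 CPM (53.7 to 82.9) and neuroectoderm-like cells 61.3 CPM (49.2 to 75.6), and the intervals of neighbours in that order overlap. Pdgfra was at 0.83, 5.47 and 2.79 CPM in the same classes, from 1, 7 and 4 UMIs. A cluster without a name, led by Wnt6 and Tfap2a, genes of surface ectoderm, held 134 CPM of Pdgfa from 99 UMIs. The node- and notochord-like cells, which number 45, held 60.3 CPM (30.1 to 107.9).

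Kdr was followed as the mark of mesoderm that gives rise to vessels and blood. It was high in endothelial- and blood-progenitor-like cells at all stages, at 217 CPM (171 to 271) at MS-LS, 232 CPM (190 to 281) at OB-EB and 169 CPM (147 to 193) at EHF. In mesoderm-like cells it went from 87.6 CPM (77.2 to 99.1) to 62.9 CPM (55.7 to 70.8) and 21.0 CPM (17.3 to 25.2). Epiblast- and ectoderm-like cells had 1.49, 3.71 and 1.11 CPM. Only EHF has a cluster named as endothelial-like, and the cells of the group at MS-LS and OB-EB scored highest for blood progenitor markers. The excess over mesoderm-like cells was a log2 ratio of 1.31 (0.92 to 1.68) at MS-LS and 1.89 (1.55 to 2.21) at OB-EB. At EHF endothelium and blood progenitors formed separate clusters, and the 86 endothelial-like cells stood at 360 CPM (311 to 414), a log2 ratio over mesoderm-like cells of 4.10 (3.76 to 4.44).

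Blood-progenitor-like cells of the EHF library had 23.6 CPM of Kdr (13.8 to 37.9), about the level of its mesoderm-like cells, and lay below endothelial-like cells by a log2 ratio of 3.93 (3.21 to 4.74). Kdr had a UMI in 81.4% of endothelial-like cells. With each cell thinned to 2000 UMIs the share was 54.1%, against 0.41% of trophoblast-like cells treated the same way. Erythroid-like cells held 6.21 CPM, from 4 UMIs.

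The lower Kdr level at EHF was also seen within the mesoderm types named at both ends, though these are not the same clusters of cells. The lateral plate/extra-embryonic mesoderm-like class is led by Foxf1, Phlda2 and Pmp22 at MS-LS and by Pmp22, Acta2 and Stard8 at EHF, and does not take in the Pitx1-led EHF cluster, which scored highest for the same markers and held 44.6 CPM. EHF over MS-LS was −2.06 (−2.39 to −1.74) over all mesoderm-like cells, −2.18 (−2.91 to −1.51) in lateral plate/extra-embryonic mesoderm-like cells and −1.75 (−2.58 to −1.01) in nascent mesoderm-like cells. From MS-LS to OB-EB the log2 ratio was −0.48 (−0.73 to −0.23) over all mesoderm-like cells but −0.02 (−0.37 to 0.34) in lateral plate/extra-embryonic mesoderm-like cells, where the levels were 123 and 122 CPM. In endothelial- and blood-progenitor-like cells the EHF over MS-LS ratio was −0.36 with an interval of −0.74 to 0.03. The 10 endothelial markers in the MS-LS table summed to 182 CPM in mesoderm-like cells, with Cdh5, Pecam1, Tek, Cldn5 and Sox18 at 0, against 832 CPM in the endothelial- and blood-progenitor-like cells. The sums were 117 against 684 CPM at OB-EB and 139 against 757 CPM at EHF.

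Flt1 shared the endothelial-like cells with Kdr and had a second, early site in definitive endoderm-like cells. Endothelial- and blood-progenitor-like cells held 90.2 CPM (61.7 to 127.3), 72.4 CPM (49.8 to 101.6) and 77.4 CPM (62.8 to 94.3), with 163 CPM (131 to 200) in the endothelial-like cells of EHF and 12.5 CPM in its blood-progenitor-like cells. Although grouped here with the receptors of mesoderm, it was low in mesoderm-like cells, at 14.2, 10.2 and 10.2 CPM. The log2 ratio over mesoderm-like cells was 2.67 (1.95 to 3.37) at MS-LS, 2.83 (2.13 to 3.51) at OB-EB and 3.99 (3.49 to 4.5) in the endothelial-like cells of EHF.

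Definitive endoderm-like cells held Flt1 at 79.0 CPM (61.1 to 100.6, 66 UMIs) at MS-LS, 50.6 CPM (34.6 to 71.5, 32 UMIs) at OB-EB and 9.18 CPM (2.50 to 23.5, 4 UMIs) at EHF. They exceeded mesoderm-like cells by a log2 ratio of 2.48 (1.89 to 3.08) at MS-LS and 2.32 (1.61 to 3.01) at OB-EB, and stood at −0.16 (−2.08 to 1.28) at EHF. The EHF over MS-LS ratio in this class was −3.11 (−5.02 to −1.68). Its cluster differs in leading genes between these stages, as given above, so the same cells are not compared. Early on the class was level with the endothelial- and blood-progenitor-like cells, which were above it by 0.19 (−0.47 to 0.82) at MS-LS and 0.52 (−0.23 to 1.26) at OB-EB. Kdr had 0 UMIs in the 155 definitive endoderm-like cells of MS-LS, set against a floor of 3 UMIs (3.59 CPM, not an exact limit). At OB-EB it had 8 UMIs in 187 such cells, 12.7 CPM (5.47 to 24.9), above the 3.71 CPM of epiblast- and ectoderm-like cells and below the 62.9 CPM of mesoderm-like cells. Of 10 endothelial markers listed at MS-LS 4 had a UMI in these cells, at 80.2 CPM in sum, and Cdh5, Pecam1, Tek, Esam, Cldn5 and Sox18 were at 0. At OB-EB 4 of 9 markers had one, at 68.1 CPM, with Cdh5, Tek, Esam, Rasip1 and Cldn5 at 0. The sex makeup of this class differed from its library at MS-LS, where 19 cells were called female and 53 male.

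Within mesoderm, Flt1 in lateral plate/extra-embryonic mesoderm-like cells was at 37.7 CPM (25.2 to 54.1) at EHF, a log2 ratio of 1.89 (0.87 to 2.99) over MS-LS. In nascent mesoderm-like cells it was lower at EHF, with 2.21 CPM from 2 UMIs and a log2 ratio over MS-LS of −2.94 (−6.05 to −0.96).

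Vegfa, the ligand of both receptors, was higher in extra-embryonic endoderm-like than in mesoderm-like cells at all 3 stages, and at MS-LS and OB-EB no other named group had a higher level. At EHF definitive endoderm-like cells were level with it. Extra-embryonic endoderm lies beside the extra-embryonic mesoderm where the first vessels of the yolk sac form. The Vegfa level there was 63.7 CPM (55.5 to 72.7, 217 UMIs) at MS-LS, 39.7 CPM (29.3 to 52.6, 48 UMIs) at OB-EB and 16.99 CPM (12.0 to 23.3, 38 UMIs) at EHF. Mesoderm-like cells stayed between 7.27 and 7.40 CPM. The log2 ratio over mesoderm-like cells was 3.13 (2.48 to 3.85), 2.42 (1.75 to 3.12) and 1.22 (0.54 to 1.90). EHF over MS-LS within extra-embryonic endoderm-like cells was −1.91 (−2.44 to −1.40), with OB-EB over MS-LS at −0.68 (−1.17 to −0.23) and EHF over OB-EB at −1.22 (−1.88 to −0.58). The clusters of this class were led by Lgals2, Spink1 and Cubn at MS-LS and by Cubn, Afp and Npl at EHF, so its makeup differs. Over the cells called male the EHF over MS-LS value was −1.01 with an interval of −2.20 to 0.01.

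Definitive endoderm-like cells held 14.4, 20.6 and 18.4 CPM of Vegfa, from 12, 13 and 8 UMIs. At EHF lateral plate/extra-embryonic mesoderm-like cells reached 18.2 CPM (9.94 to 30.5), above the other mesoderm-like cells by 1.72 (0.67 to 2.71), while endothelial-like cells had 3.65 CPM from 2 UMIs. With cells thinned to 2000 UMIs, Kdr had a UMI in 3 of 647, 1 of 285 and 2 of 306 extra-embryonic endoderm-like cells, too few to read its overlap with Vegfa. Of a list of 15 genes known to respond to low oxygen, 3 of 10 with enough UMIs were at least 2-fold higher in extra-embryonic endoderm-like than mesoderm-like cells at MS-LS, where 18.8% of all genes were. They were 3 of 8 at OB-EB beside 12.8% of all genes, and 4 of 12 at EHF beside 13.2%. Genes of the list were also lower, at least 2-fold so for Ldha and Aldoa at MS-LS, Aldoa at OB-EB, and Egln3 and Ddit4 at EHF. The share of all genes at least 2-fold lower was not counted in this comparison, so these calls have no rate beside them. Taking the first genes of the list in their fixed order, the log2 ratios at MS-LS, OB-EB and EHF were 0.45, 0.63 and −0.44 for Slc2a1 and 4.42, 4.15 and 4.10 for Slc2a3, both glucose transporters. They were −0.87, −0.79 and −0.62 for the glycolytic enzyme Pgk1 and −1.06, −0.85 and −0.66 for Ldha, which makes lactate. The median log2 ratio of the list was 0.27, 0.22 and −0.23, beside 0.09, −0.10 and −0.15 for all genes.

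At EHF the mesoderm-like clusters differed in all 5 genes. Of 7 such clusters 3 could be named singly, and they are given here by falling Pdgfra. The cluster led by Aldh1a2, Meox1 and Tbx6 was left without a name, its leading genes being markers of both paraxial and presomitic mesoderm. It had 188 cells and held 109 CPM of Pdgfra, 9.91 CPM of Pdgfa and 1 UMI of Kdr. The cluster led by Tcf15, Alx1 and Foxc2, with 187 cells, held 90.4 CPM of Pdgfra, 6.33 CPM of Pdgfa and 12.7 CPM of Kdr. Nascent mesoderm-like cells held 78.4, 30.9 and 18.8 CPM of the same genes, and cardiac mesoderm-like cells 73.8, 24.1 and 35.5 CPM. Lateral plate/extra-embryonic mesoderm-like cells held 41.6, 46.8 and 27.3 CPM. The cluster led by Pitx1, Hoxd9 and Foxf1, with 113 cells, held 34.1 CPM of Pdgfra, 61.6 CPM of Pdgfa and 44.6 CPM of Kdr. Between the first and the last of these clusters the log2 ratio was 1.68 (1.05 to 2.35) for Pdgfra, −2.64 for Pdgfa and −5.49 (−10.84 to −2.92) for Kdr. Pdgfa and Kdr did not follow the order of Pdgfra step by step, and the low-depth cluster of 103 cells held 9.11 CPM of Pdgfra and 41.0 CPM of Pdgfa. The Pitx1-led cluster also had less Pdgfra than cardiac mesoderm-like cells (−1.11, −1.85 to −0.41).

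Flt1 and Vegfa were at 37.7 and 18.2 CPM in lateral plate/extra-embryonic mesoderm-like cells and 18.4 CPM each in the Pitx1-led cluster, against 0 and 1.98 CPM in the Aldh1a2-led cluster. Flt1 in lateral plate/extra-embryonic mesoderm-like cells exceeded that in cardiac mesoderm-like cells by a log2 ratio of 2.15 (0.85 to 3.70).

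Whether single mesoderm cells carry both Pdgfra and Kdr was read from cells thinned to 2000 UMIs, which removes differences in depth between cells and leaves out 20, 322 and 72 shallower cells. Both transcripts were found in 8 of 573 mesoderm-like cells (1.40%, 0.61 to 2.73) at MS-LS, 9 of 1041 (0.865%, 0.396 to 1.64) at OB-EB and 6 of 867 (0.692%, 0.254 to 1.5) at EHF. Trophoblast-like cells, taken as the background class, had 0 of 519, 210 and 487. Pdgfra was found in only 2, 0 and 3 of those cells and Kdr in 5, 4 and 2, so these counts of 0 say little. Pdgfra alone or with Kdr was found in 12.2%, 6.92% and 12.5% of the thinned mesoderm-like cells, and Kdr in 12.7%, 9.32% and 3.11%. The product of those shares, the value that independent detection would give, was 1.56%, 0.645% and 0.388%, inside the interval of the measured share at each stage. Kdr was found in 11.4% of cells with Pdgfra and 12.9% of cells without it at MS-LS, in 12.5% and 9.08% at OB-EB, and in 5.56% and 2.77% at EHF.

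Without thinning, 48 of 593 cells (8.09%, 6.03 to 10.6) had both at MS-LS, 27 of 1363 (1.98%, 1.31 to 2.87) at OB-EB and 21 of 939 (2.24%, 1.39 to 3.4) at EHF, and the products were 7.00%, 1.53% and 2.47%. Cells with a Pdgfra UMI were deeper than those without, with medians of 4618.5 against 3830 UMIs at MS-LS, 3550 against 2620 at OB-EB and 6178.5 against 5113 at EHF. The unthinned MS-LS cells with both were concentrated in the deeper of its nascent mesoderm-like clusters, which gave 22 of 108 cells (20.4%). At OB-EB 1 cluster of 310 cells gave 7 of the 9 thinned cells with both, and without it the share was 0.274%.

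**Figure D2:**
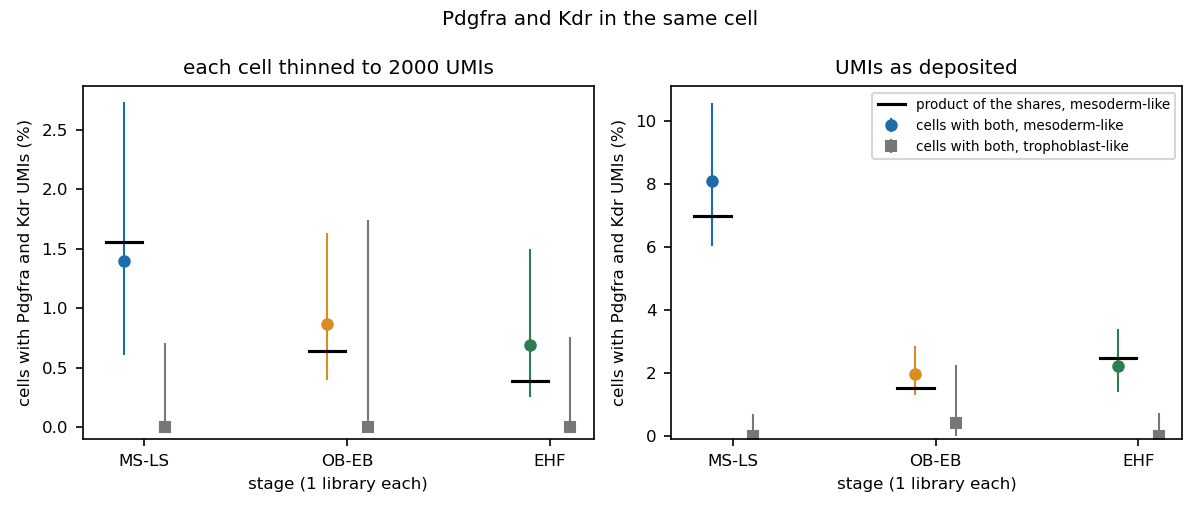
Percent of mesoderm-like cells with at least 1 UMI of both Pdgfra and Kdr at each stage, for cells thinned to 2000 UMIs and unthinned, with exact 95% binomial intervals, beside the product of the shares of each gene (black lines) and the share in trophoblast-like cells (grey squares). The thinned shares run from 0.692% to 1.40% and the products lie within their intervals.

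The level of Kdr was also compared between unthinned mesoderm-like cells with and without a Pdgfra UMI, which differ in depth as given above. Mesoderm-like cells with a Pdgfra UMI had 87.1 CPM of Kdr at MS-LS and those without had 87.9 CPM (log2 ratio −0.01, −0.41 to 0.38). The values were 68.1 and 62.1 CPM at OB-EB (0.13, −0.40 to 0.63). At EHF they were 14.7 and 24.6 CPM (−0.74, −1.40 to −0.12), and the Pdgfra level in cells with Kdr over those without was −0.56 (−1.13 to −0.04). At EHF this goes the other way from the thinned shares, in which Kdr was found in 5.56% of cells with Pdgfra and 2.77% without, so no direction is read for that stage. Endothelial- and blood-progenitor-like cells had both transcripts in 0 of 67, 111 and 210 thinned cells. Pdgfra itself was found in only 0, 0 and 1 of these cells, too few to read its overlap with Kdr. Kdr with Flt1 was found there in 5 of 67 cells (7.46%), 4 of 111 (3.60%) and 9 of 210 (4.29%). Pdgfa with its receptor was found in 2, 4 and 5 thinned mesoderm-like cells.

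Set against all genes with at least 100 UMIs in both classes together, the members were read by how many differed at least 2-fold. In mesoderm-like over epiblast- and ectoderm-like cells 4.0% of genes were at least 2-fold higher at MS-LS, 3.34% at OB-EB and 4.73% at EHF. Pdgfra and Kdr were among them each time, which is 2 of 2, 2 of 3 and 2 of 3 members with enough UMIs. In endothelial- and blood-progenitor-like cells over mesoderm-like cells at MS-LS and OB-EB, and in endothelial-like cells at EHF, the shares of all genes were 1.74%, 2.10% and 2.17%, and Kdr passed at all stages and Flt1 at EHF, the only stage at which it had enough UMIs. In definitive endoderm-like over mesoderm-like cells the shares were 1.92%, 2.27% and 3.84%, and 1 of 3 members passed each time, Flt1 at MS-LS and Pdgfa at OB-EB and EHF. In extra-embryonic endoderm-like over mesoderm-like cells 18.8% of all genes passed at MS-LS, 12.8% at OB-EB and 13.2% at EHF, with Vegfa passing at MS-LS and short of 100 UMIs at the later stages.

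Between EHF and MS-LS, 12.2% of genes were at least 2-fold higher in mesoderm-like cells and 4.28% at least 2-fold lower, and of 3 members 0 were higher and Kdr was lower. In epiblast- and ectoderm-like cells 10.4% of genes were higher, and Pdgfa, the 1 member with enough UMIs, was one of them. In extra-embryonic endoderm-like cells 4.66% of genes were lower, Vegfa among them.

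The rest of the family was read from a list of 18 symbols, of which 17 were in the tables. Flt4, the receptor of Vegfc and Vegfd and a gene of early and lymphatic endothelium, was an endothelial-like transcript at EHF, at 40.2 CPM and a log2 ratio over mesoderm-like cells of 5.20 (3.85 to 6.79). Pdgfb, the ligand that endothelium presents to Pdgfrb, had 9.13 CPM there from 5 UMIs (4.65, 2.03 to 8.04). Nrp2 and Nrp1, co-receptors of the VEGF ligands, were at 58.4 and 38.4 CPM in the same cells, with ratios over mesoderm-like cells of 0.88 (0.29 to 1.43) and −0.19. Vegfb was broad, at 15.5, 30.2 and 20.8 CPM over all cells. Pdgfc, Pdgfd, Pdgfrl, Vegfc, Vegfd and Pgf had between 5 and 43 UMIs in a whole library and are not described further.

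**Figure D3:**
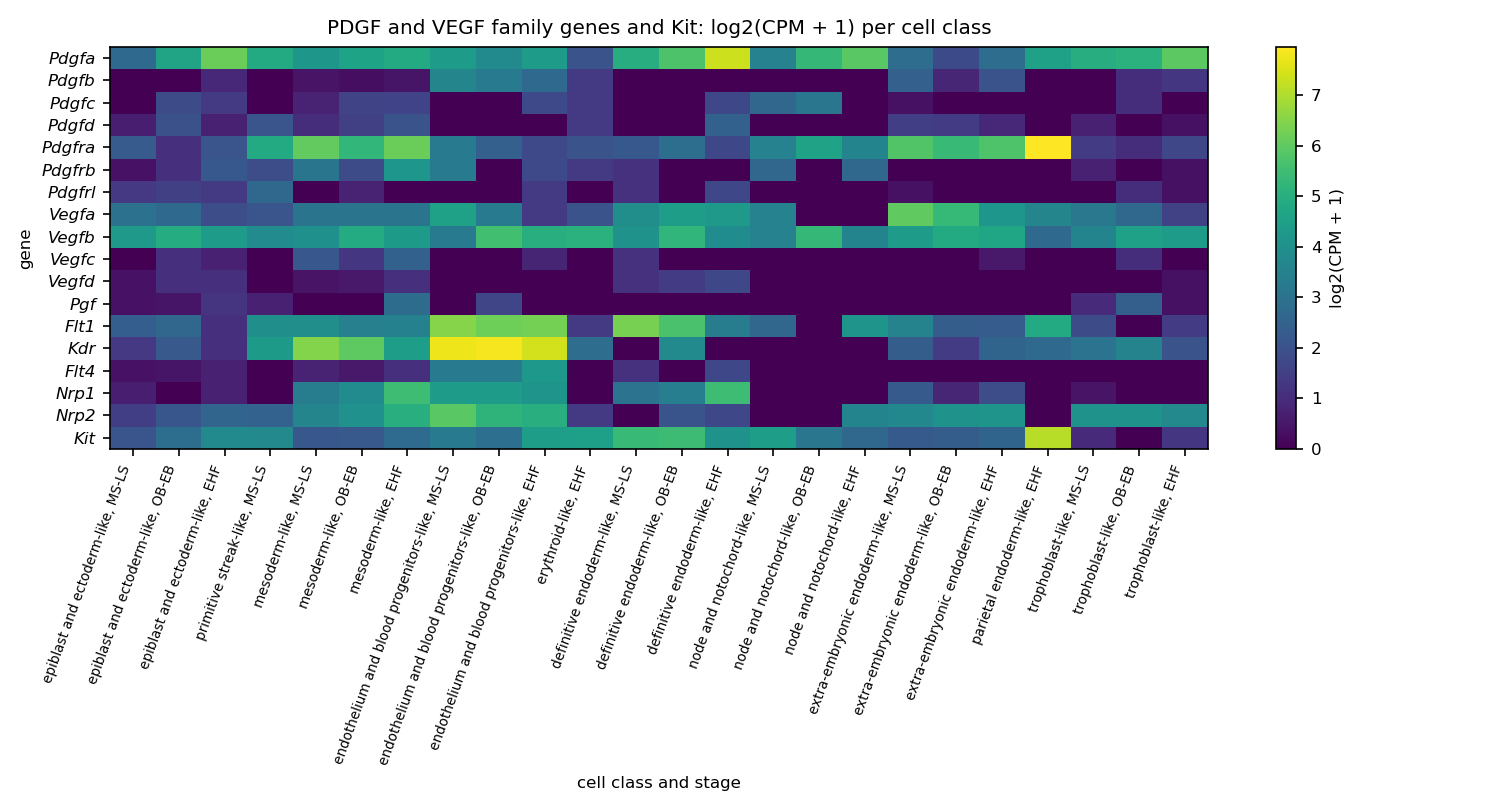
Level of each PDGF and VEGF family gene and of Kit in the broad named groups of each library, as log2(CPM + 1), brighter colours being higher. Kdr, Flt1 and Flt4 are brightest in endothelial- and blood-progenitor-like cells, where Flt1 is matched by definitive endoderm-like cells of MS-LS, and Pdgfra and Kit are brightest in the parietal endoderm-like cells.

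While Kdr was lower in mesoderm-like cells at EHF than at MS-LS, both neuropilins and the second PDGF receptor were higher there. These were 3 of 7 family genes with enough UMIs at least 2-fold higher, beside 12.2% of all genes. Kdr was the 1 of 7 at least 2-fold lower, beside 4.28% of all genes. The median gene was 0.26 higher on the log2 scale. The mesoderm-like clusters differ between these stages, as given above, and the part of that in these values was not tested. Nrp1 went from 9.35 CPM at MS-LS to 43.6 CPM at EHF (log2 ratio 2.22, 1.65 to 2.85), Nrp2 from 11.4 to 31.8 CPM (1.48, 0.93 to 2.06) and Pdgfrb from 7.62 to 16.98 CPM (1.16, 0.47 to 1.90). At EHF Nrp1 reached 125 CPM in lateral plate/extra-embryonic mesoderm-like and 90.8 CPM in cardiac mesoderm-like cells, Nrp2 was at 59.6 CPM in nascent mesoderm-like cells, and Pdgfrb was at 42.9 CPM in lateral plate/extra-embryonic mesoderm-like cells. Kit, which lies between Pdgfra and Kdr and encodes the receptor of stem cell factor, was at 40.7, 42.7 and 16.1 CPM in definitive endoderm-like cells, log2 ratios over mesoderm-like cells of 3.56 (2.51 to 4.74), 3.53 (2.59 to 4.52) and 1.46 (0.04 to 2.67), and at 135 CPM in the parietal endoderm-like cells.

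Across 29 named classes of the 3 libraries, which share library, depth and pooled embryos, the members' levels on the log2(CPM + 10) scale ran together only in part. Pearson's r was 0.57 between Kdr and Flt1, 0.14 between Pdgfra and Kdr, −0.30 between Pdgfra and Pdgfa and −0.07 between Vegfa and Kdr. Among 5383 other genes, the pattern most like that of Kdr was that of Etv2 (0.88), an ETS-family factor and one of the markers used to name endothelium, followed by Ets1 (0.85), Lhfp (0.82), Ptpn18 (0.82) and Fbn2 (0.79). The pattern of Pdgfra was nearest to that of Gata4 (0.81), a factor of endoderm and heart mesoderm, with Serinc1 (0.78), Arl4d (0.77) and Bmper (0.77) also among its nearest. Gata4 and Bmper, like Pdgfra, were highest in the parietal endoderm-like cells of EHF, and Bmper was also a naming marker. Flt1 lay nearest to Bmp2 (0.75), Nuak1 (0.68), Hhex (0.67), Pkdcc (0.64) and Yaf2 (0.62), and Hhex was a marker used to name definitive endoderm. Vegfa was nearest to genes of the extra-embryonic endoderm, Npc1 (0.87), Dab2 (0.83), Spink1 (0.82), Ly75 (0.80) and Ctsc (0.80). Pdgfa was nearest to Trp53i11 (0.80), Bcam (0.77), Amotl1 (0.76), Cep19 (0.71) and Hnrnpr (0.71). These are descriptions over classes and carry no p-value.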

How the data were processed

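The authors sequenced 10x Chromium 3′ libraries and deposited filtered UMI counts per gene and cell, made, per the submitters' processing notes, with Cell Ranger 3.0.2, R 3.6.1 and Seurat 3 against GRCm38. They removed cells of low gene or UMI number or of high mitochondrial share. The pair of EHF tables held the same counts (0 places differed, 21 gene names did) and was used as 1 library. No column was left aside (0). Barcodes shared between libraries numbered 12 to 18.

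Cells were clustered per library with Seurat 5.3.0 in R 4.3.3 (2000 variable genes, 50 components, resolutions 2, 2 and 4.5), without PDGF and VEGF genes. A cluster was named from 3 or more detected markers among 24 lists, and broad groups from the union of lists; this naming rule was set after the data were seen. Doublets were kept, since Scrublet in scanpy 1.11.5 called 6, 0 and 13 cells; leaving out the top 5% by score was an alternative. Counts were summed per class and scaled to CPM in Python 3.11.15 with scipy 1.17.1, with exact Poisson, conditional binomial and Clopper-Pearson 95% intervals. A sum of 0 allows up to 3 UMIs over the class. No test was run, as each group is 1 library. The functions were tested on simulated data. Named genes are the 5 members, their family, Kit, the 5 genes with the most similar pattern to each member (1 of them is not reported here) and leading genes of clusters. Members and lists were chosen with earlier results of these data known. Promoter sequences are from RefSeq and gene positions from GENCODE M21.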

Additional observations from a re-analysis of the deposited data

Results flagged for a closer look

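Pdgfa changed sides between epiblast- and ectoderm-like and mesoderm-like cells, with log2 ratios of −1.64 at MS-LS, 0.02 at OB-EB and 1.34 at EHF, the intervals of the first and last lying on opposite sides of 0. The difference between stages was not tested, since each is 1 library. The first class also differs in makeup. Its named clusters were epiblast-like at MS-LS and neuroectoderm-, caudal neuroectoderm- or caudal epiblast-like at EHF.

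Vegfa in endothelial- and blood-progenitor-like over mesoderm-like cells went from 1.63 (0.25 to 2.87) at MS-LS through 0.24 (−1.72 to 1.74) at OB-EB to −2.21 (−5.30 to −0.26) at EHF. These rest on 8, 4 and 2 UMIs in the first class, and the difference between stages was not tested.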

How the results depend on the processing

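Of 262 values recomputed under alternatives for 23 results, 234 stayed within the counting interval of the reported value, 28 moved outside it and 0 reversed a called direction. The cause of each move was not tested. Over cells called male, Pdgfa in epiblast- and ectoderm-like over mesoderm-like cells was −2.59 at MS-LS, −1.08 at OB-EB and 0.26 at EHF, Pdgfra in mesoderm-like over epiblast- and ectoderm-like cells at MS-LS 5.10, Vegfa in extra-embryonic endoderm-like over mesoderm-like cells at EHF 2.21, and EHF over MS-LS −2.74 for Kdr and −0.48 for Pdgfra in mesoderm-like and −1.01 for Vegfa in extra-embryonic endoderm-like cells. Over cells called female, EHF over MS-LS was −1.61 for Kdr and 0.48 for Pdgfra in mesoderm-like cells and 4.90 for Pdgfa in epiblast- and ectoderm-like cells. Halving the clustering resolution gave 0.57 for Pdgfa at OB-EB and 3.44 for Pdgfra at EHF in their comparisons of these classes, and doubling it 1.70 for Pdgfa at EHF.

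Co-detection varied with the depth used, though not in step with it at EHF. Its share was 8.09%, 1.98% and 2.24% in order of stage without thinning, 0.51%, 0.236% and 0.222% at 1500 UMIs, 2.97% at MS-LS and 3.43% at OB-EB at 3500 UMIs, and 0.22% at OB-EB and 0.106% at EHF where 2 UMIs of each gene were needed. Among thinned cells called female it was 0% at MS-LS, and among those called male 3.15% at MS-LS and 0% at EHF. Without OB-EB cluster 6, an alternative chosen after seeing the data, the OB-EB share was 0.274%. Leaving out low-depth clusters and dropping the naming margin, also chosen after seeing the data, moved no result outside its interval. Dropping the margin left the cell numbers of all compared classes unchanged, so it is no check of the results. Leaving out low-depth clusters changed only mesoderm-like and extra-embryonic endoderm-like cells of EHF, to 836 and 302 cells. Both alternatives are counted among the 262 values. The study's cluster names were used here cell by cell for the MS-LS library alone, and gave no Vegfa value. No paired analysis was possible because each stage is 1 library. No library could be left out for the same reason.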
